A study of Mus musculus with 6 samples.

Results

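CpG methylation was described at 6 genes that regulate or mark the primitive endoderm, taken by name from 21755 protein-coding genes. They were Gata4, Gata6, Sox17, Sox7, Foxa2 and Pdgfra. For each gene the CpGs in the promoter of every annotated start, in the gene body and in 50 kb on either side were read. The 6 genes held 33 distinct annotated starts and 386 tiles of 2 kb.

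The primitive endoderm is the layer of the blastocyst that separates from the epiblast under fibroblast growth factor signalling and later forms the visceral and parietal endoderm of the yolk sac. Gata6 is among the first factors of this lineage, Gata4, Sox17, Sox7 and Foxa2 are transcription factors that act after or together with it, and Pdgfra encodes a receptor of platelet-derived growth factor that marks the lineage at the cell surface. Genes of this kind often have CpG-rich promoters, and such promoters commonly stay free of methylation whether or not the gene is transcribed. RNA was not analysed here, so nothing is said of whether any of the 6 genes was expressed.

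Mouse pluripotent cells of 3 kinds, all labelled wild type and of strain 129S2/SvPasCrl and described by the study as female, were compared with 2 libraries each. The study's methods describe embryos of 129/sv mothers and reporter-carrying fathers whose background mixed MF1, 129/sv and C57BL/6J. ASCs (advanced pluripotent stem cells) were obtained by moving blastocyst-derived AFSCs, which grow in Activin A and bFGF, into ABCL medium (Activin A, BMP4, the GSK3 inhibitor CHIR99021 and LIF) and growing out colonies that switched on an Oct4 reporter. ESCs are naive cells kept in 2i/LIF, and EpiSCs are primed cells like the epiblast after implantation. Cell type and medium changed together and cannot be told apart. The libraries are described as 2 biological replicates per condition with no word on separate lines or cultures. The p-values below rest on read counts and on a spread between replicate libraries that was moderated across regions. For tiles the shared spread had a weight of 145 degrees of freedom against 3 for the tile itself. A tile's own spread between replicates thus counts for little, and the p-values do not measure how far separate lines differ.

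Methylation was read by whole-genome bisulfite sequencing at 63803799 to 74925271 CpG reads per library, or 2.96 to 3.46 reads per CpG, which is too few for single CpGs. Reads were therefore summed over regions. An observation is 1 read of 1 CpG, a level is the percentage of observations that were methylated, and a region was tested where every library had 40 or more observations. A level of 50% from 40 observations has a 95% exact binomial interval of 33.8% to 66.2%, and 0 methylated of 40 has an exact upper bound of 8.81%, or 7.5% by the simpler limit of 3 observations used below. These cover counting error only and take observations as independent. A read over several CpGs gives several observations, so the true limits can be wider. A region is called here where the adjusted p of a moderated quasi-binomial model fell below 0.05 and the difference in group means was at least 20 percentage points. Over the 445422 tested 2 kb tiles of the genome, of 1316877, the median level was 69.2% (ASC), 19.8% (ESC) and 92.1% (EpiSC), so a rise from ESCs and a deficit against EpiSCs is what most tested tiles show. Background shares and medians given below as those of all tiles, starts or genes are over the tested ones.

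Sequence is shown for 5 of the regions described below, from the mouse reference GRCm38, printed with every CpG in capitals, 5′ to 3′ on the strand of the named gene. The first is the promoter of the CpG-rich Gata4 start, which stayed almost free of methylation in all libraries. The second is the most CpG-rich part, with 40 observations in every library, of the Gata4 intron where ASCs exceeded EpiSCs, in a tile with a gap of 21.3 points. The third lies downstream of Gata4 where ASCs fell furthest below EpiSCs, the fourth is the distal part of the Sox7 promoter that gained methylation in EpiSCs, and the fifth lies downstream of Foxa2 where ASCs exceeded EpiSCs. None overlaps an annotated exon.
Gata4-201 promoter: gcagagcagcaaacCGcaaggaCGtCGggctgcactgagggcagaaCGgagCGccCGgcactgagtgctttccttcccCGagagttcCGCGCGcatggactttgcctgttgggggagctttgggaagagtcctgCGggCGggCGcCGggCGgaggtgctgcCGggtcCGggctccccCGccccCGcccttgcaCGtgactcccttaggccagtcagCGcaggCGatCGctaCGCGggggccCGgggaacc
Gata4 intron: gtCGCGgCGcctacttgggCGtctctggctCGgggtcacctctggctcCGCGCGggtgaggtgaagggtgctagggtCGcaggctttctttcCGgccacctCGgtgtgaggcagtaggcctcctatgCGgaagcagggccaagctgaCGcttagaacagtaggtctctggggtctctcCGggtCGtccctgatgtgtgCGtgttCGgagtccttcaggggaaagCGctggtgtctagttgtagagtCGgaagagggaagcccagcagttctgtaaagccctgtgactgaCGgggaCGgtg
Gata4 downstream, Fdft1 intron: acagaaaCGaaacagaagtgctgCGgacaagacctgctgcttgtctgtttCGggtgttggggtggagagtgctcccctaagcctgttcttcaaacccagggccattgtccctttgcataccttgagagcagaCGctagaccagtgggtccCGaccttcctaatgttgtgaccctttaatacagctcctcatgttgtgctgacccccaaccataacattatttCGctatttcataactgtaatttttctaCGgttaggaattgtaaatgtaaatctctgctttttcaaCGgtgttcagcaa
Sox7 promoter: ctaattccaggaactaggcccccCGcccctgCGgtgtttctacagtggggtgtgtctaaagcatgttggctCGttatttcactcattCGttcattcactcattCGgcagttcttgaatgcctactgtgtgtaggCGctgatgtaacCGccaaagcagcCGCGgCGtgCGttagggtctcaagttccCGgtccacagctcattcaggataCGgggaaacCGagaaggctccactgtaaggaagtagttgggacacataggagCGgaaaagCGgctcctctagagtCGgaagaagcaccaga
Foxa2 downstream: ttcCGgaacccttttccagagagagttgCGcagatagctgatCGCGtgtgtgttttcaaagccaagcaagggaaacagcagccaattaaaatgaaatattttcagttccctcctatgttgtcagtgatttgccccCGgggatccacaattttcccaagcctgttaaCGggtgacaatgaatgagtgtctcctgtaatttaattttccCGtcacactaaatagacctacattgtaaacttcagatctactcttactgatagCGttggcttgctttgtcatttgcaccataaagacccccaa
The Gata4-201 promoter sequence is chr14:63245272-63245521 on the minus strand and holds 26 CpGs. The Gata4 intron sequence, chr14:63251461-63251760 on the minus strand, holds 21 CpGs, and the Fdft1 intron sequence, chr14:63166871-63167170 on the minus strand, holds 8. The Sox7 sequence is chr14:63942673-63942972 on the plus strand, from 1000 to 701 bases before the start, with 17 CpGs, and the Foxa2 sequence is chr2:148029351-148029650 on the minus strand, with 8 CpGs.

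The promoters of the 6 genes (1000 bp before to 100 bp after a start) were low in all 3 cell types at 28 of 31 tested starts, where no library was above 22.9%. These 28 promoters held 25 to 132 CpGs each, with an observed over expected CpG ratio of 0.427 to 0.908. The remaining 3 starts, Gata4-205/206, Gata4-204 and Pdgfra-203, were CpG-poor, with 13 to 15 CpGs and a ratio of 0.188 to 0.209, and were above 40% in every ASC and EpiSC library. The other 2 of the 33 starts, Gata4-203 and Pdgfra-205, had fewer than 40 observations in some library and no test. Many starts of a gene lie close together and share reads, so the 31 promoters are not independent.

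**Figure D1:**
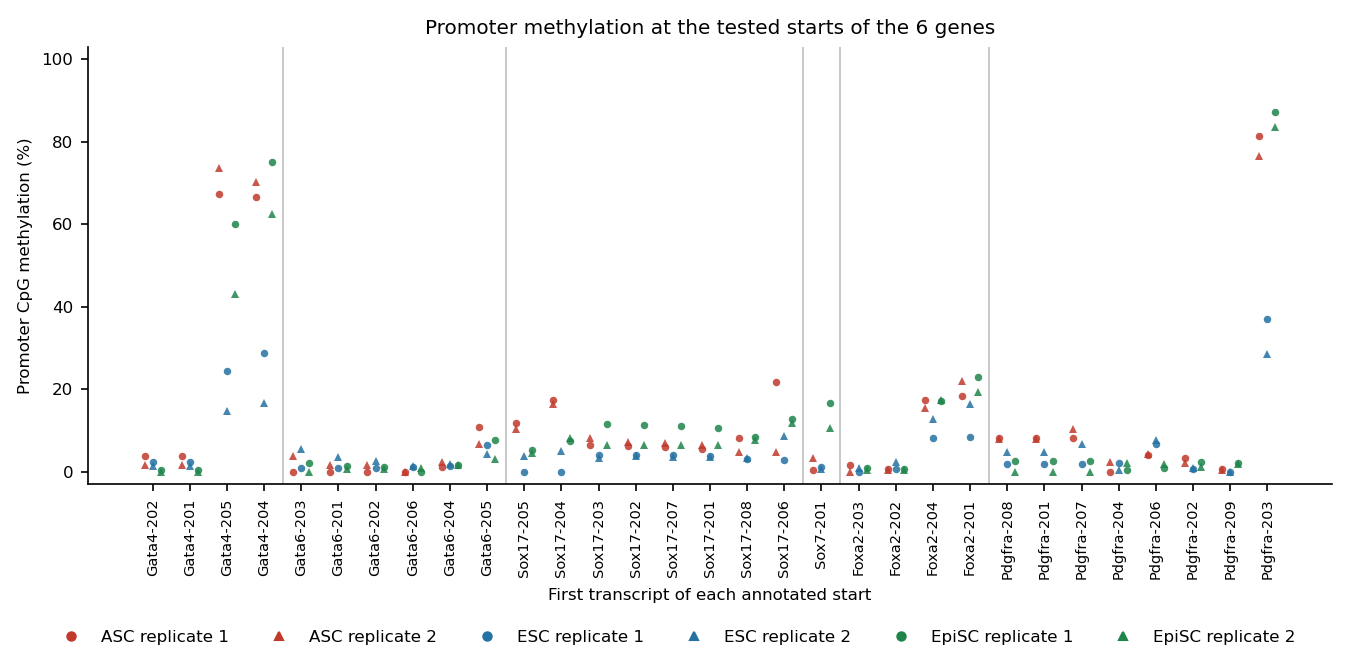
Level of CpG methylation (percent, y axis) in the promoter of each of the 31 tested starts (x axis, named by the first transcript), with 1 point per library: circles for replicate 1 and triangles for replicate 2, in red for ASC, blue for ESC and green for EpiSC. 28 promoters sit under 23% in all 6 libraries, and 3 CpG-poor promoters of Gata4 and Pdgfra stand high in ASC and EpiSC.

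Gata6, which opens the lineage, was among the least methylated. At its most used start (the start with the most transcripts of the gene, or the most upstream of equals) the promoter level was 0% and 3.85% (ASC), 0.952% and 5.66% (ESC), 2.24% and 0% (EpiSC). At the CpG-rich start Gata6-206 it was 0% and 0% (ASC), 1.22% and 1.40% (ESC), 0% and 1.03% (EpiSC). If independent, the 108 observations of the shallowest library would have shown a level over about 2.78%. At Gata6-206 both ASC libraries were below both ESC libraries, by 1.31 points (adjusted p = 0.141), and both EpiSC libraries were below both ESC libraries too, by 0.796 points (adjusted p = 0.348). At Gata6-206 the ASC and EpiSC libraries overlapped, and none of the 6 Gata6 starts passed the test in any contrast. The highest library level at a Gata6 start was 10.9%, at Gata6-205 within the gene.

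Gata4 had 2 kinds of starts. Gata4-201 and Gata4-202, which share their CpGs, were in an island, a CpG-rich stretch (for Gata4-201 61.1% GC and a CpG ratio of 0.701): 3.75% and 1.71% (ASC), 2.45% and 1.34% (ESC), 0.510% and 0% (EpiSC). The ASC libraries were above the EpiSC libraries by 2.47 points on average (adjusted p = 0.0121, moderated quasi-binomial model), far under the 20 points required for a call, and the adjusted p was 0.121 without ASC replicate 1 and 0.109 without EpiSC replicate 2. In the 250 bases before Gata4-201, printed above, no library was above 1.30%.

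The upstream starts of Gata4 looked different. At Gata4-205/206, the start with more transcripts than any other of the gene, levels were 67.5% and 73.8% (ASC), 24.5% and 14.8% (ESC), 60% and 43.1% (EpiSC). At Gata4-204, a little further upstream, they were 66.7% and 70.3%, 28.8% and 16.7%, and 75% and 62.5%. ASCs and EpiSCs were above ESCs at both starts with no overlap in this window. The ASC gain was 50.9 points at Gata4-205/206 (adjusted p = 0.000162) and 45.7 points at Gata4-204 (adjusted p = 0.00022).

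ASCs stood 19.1 points above EpiSCs at Gata4-205/206, with every ASC library above both EpiSC libraries, but this passed neither the size nor the test (adjusted p = 0.0519). In a promoter window of 500 bp on either side of this start the means were 74.1% (ASC), 31.7% (ESC) and 22.7% (EpiSC), and the difference of 51.5 points between ASCs and EpiSCs was called (adjusted p = 6.16e-05). EpiSCs, 31.9 points above ESCs in the longer window (adjusted p = 0.0023), were below them there (-9.05 points, adjusted p = 0.267), so the direction of that call turned with the window, while the ASC gain over ESCs was called in both. Without EpiSC replicate 1 the original window was called too, at 27.5 points (adjusted p = 0.0484). The window and a single library thus each change this call.

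Sox17, a partner of the Gata factors in endoderm, had levels of 0% to 21.8% over its 8 starts. At its most used start, Sox17-206, the ASC libraries differed most from each other, at 21.8% and 4.72%, beside 2.96% and 8.73% in ESCs and 12.7% and 11.9% in EpiSCs. The ASC libraries overlapped both other groups, and the EpiSC libraries were above the ESC libraries by 6.48 points (adjusted p = 0.0921). At 5 overlapping starts within the gene, Sox17-203, Sox17-202, Sox17-207, Sox17-201 and Sox17-208, EpiSCs were 4.80 to 5.23 points above ESCs (adjusted p of 0.00628 to 0.0174), and none passed the test without ESC replicate 1 (adjusted p of 0.0616 to 0.0837). Without EpiSC replicate 1 the difference at the first 4 of these was 2.61 to 2.75 points (adjusted p of 0.174 to 0.208), and in a window of 500 bp on either side it was 2.61 to 3.49 points (adjusted p of 0.282 to 0.429). At Sox17-204, an inner start, both ASC libraries (17.4% and 16.4%) were above the ESC pair (0% and 5.17%) by 14.3 points (adjusted p = 0.00859) and above the EpiSC libraries (7.41% and 8.11%) by 9.15 points (adjusted p = 0.0863). The gain over ESCs did not pass the test without ASC replicate 1 (adjusted p = 0.0517) or without ESC replicate 1 (adjusted p = 0.106), and it was 9.06 points as an unweighted mean over CpGs with 3 or more reads and 0.715 points in the window of 500 bp on either side (adjusted p = 0.6).

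Sox7, the close relative of Sox17, was the only one of the 6 genes with a promoter that was lower in ASCs than in EpiSCs by the test. Levels were 0.415% and 3.45% (ASC), 1.22% and 0.604% (ESC), 16.6% and 10.6% (EpiSC). ASCs and ESCs overlapped, and both EpiSC libraries stood apart, 11.6 points above ASCs (adjusted p = 0.000673) and 12.7 points above ESCs (adjusted p = 4.25e-05). In the window of 500 bp on either side the differences were -2.94 points for ASCs minus EpiSCs (adjusted p = 0.0471) and 4.69 points for EpiSCs minus ESCs (adjusted p = 0.000526).

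The Sox7 difference lay in the distal part of the promoter. In the 300 bases printed above, from 1000 to 701 before the start, none of 46 and 75 observations was methylated in the ASC libraries, while the ESC pair read 3.49% and 1.47% and the EpiSC pair read 33.6% and 20%. In the next 300 bases the EpiSC pair read 22.9% and 25.5%, and from 400 to 101 bases before the start they read 4.26% and 5.26%. Methylation in EpiSCs was thus lower next to the start than further from it. In that last segment ASC replicate 2 stood apart at 21.2% of 33 observations, beside 0% in ASC replicate 1.

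Foxa2, a forkhead factor of visceral and later of definitive endoderm, had an island at Foxa2-202 and Foxa2-203 with no library above 2.30%. At the upstream starts Foxa2-201 and Foxa2-204 the levels were higher in all cell types, for Foxa2-201 18.3% and 22.01% (ASC), 8.53% and 16.5% (ESC), 22.9% and 19.5% (EpiSC). The ASC and EpiSC libraries overlapped there, and no Foxa2 start passed the test in any contrast.

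Pdgfra, the receptor, was low over 7 of its 8 tested starts. At the most used start levels were 8.28% and 7.95% (ASC), 1.91% and 4.81% (ESC), 2.55% and 0% (EpiSC). The ASC libraries were the highest, 6.84 points above EpiSCs (adjusted p = 0.0226), a difference that did not pass the test without either ASC library or without EpiSC replicate 2 (adjusted p of 0.0687 to 0.115). At the inner start Pdgfra-203 the levels were 81.4% and 76.6% (ASC), 37.0% and 28.6% (ESC), 87.1% and 83.6% (EpiSC). ASCs there exceeded ESCs by 46.2 points (adjusted p = 0.000156) and lay 6.41 points below EpiSCs, which did not pass the test (adjusted p = 0.335).

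Over the 31 tested starts, ASCs were called higher than ESCs at 3 (9.68%), against 32.5% of all annotated starts, and EpiSCs higher than ESCs at the same 3, against 48.6% of all starts. All starts include those of noncoding genes. At the most used starts of protein-coding genes these shares were 18.8% and 38.7%. With 500 bp on either side EpiSCs were called higher at 1, Pdgfra-203, while Gata4-205/206 turned direction and Gata4-204 had too few observations. No start was called between ASCs and EpiSCs. The background was 33% of all starts called lower in ASCs and 0.188% called higher, or 25.7% and 0.155% at the most used starts of protein-coding genes. By the adjusted p alone, at any size, 5 starts were higher in ASCs than in ESCs (48.7% of all starts), 10 were higher in EpiSCs than in ESCs (78.5%) and 3 were lower in EpiSCs than in ESCs (0.455%). Several of the small differences did not pass without 1 library or in the other window. The 2 Sox17 starts among the 5 did not pass without ASC replicate 1 or without ESC replicate 1. The 5 Sox17 starts among the 10 did not pass without ESC replicate 1, and 4 of them did not without ESC replicate 2, without EpiSC replicate 1 or by limma on M values. Of the 3 that were lower, the 2 of Gata4 did not pass without ESC replicate 1 (adjusted p = 0.176) or EpiSC replicate 2 (adjusted p = 0.157), and Pdgfra-206 did not without EpiSC replicate 1 (adjusted p = 0.0718). On the same basis 1 start was lower in ASCs than in EpiSCs (Sox7; 61% of all starts) and 5 were higher (16.1%, against 0.972% of all starts), namely the 2 island starts of Gata4 and 3 overlapping starts of Pdgfra. None of these 5 passed the test without ASC replicate 1 (adjusted p of 0.0834 to 0.121) or without EpiSC replicate 2 (adjusted p of 0.109 to 0.137). The median promoter level over the 31 starts was 6.49% (ASC), 3.33% (ESC) and 2.0% (EpiSC), while the medians over the 76014 tested starts, of 130677 annotated, were 7.22%, 2.25% and 21%.

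Around the promoters, 223 of the 386 tiles had enough observations to be tested. ASCs were called higher than ESCs in 188 (84.3%, against 91.1% of all tiles) and EpiSCs higher than ESCs in 184 (82.5%, against 96.5%). ASCs were called lower than EpiSCs in 72 tiles (32.3%, against 53.5% of all tiles) and higher in 12 (5.38%, against 0.1%). Of these 12 tiles 9 were at Gata4 and 3 at Foxa2, and Gata6, Sox17, Sox7 and Pdgfra had none among their tested tiles. The tested share differed by gene: 77 of 87 tiles at Gata4, 54 of 73 at Pdgfra and 39 of 53 at Sox7. It was only 19 of 67 at Gata6, 15 of 54 at Sox17 and 19 of 52 at Foxa2. Most tiles of these 3 genes had too few observations for a test, and the largest falls and gains below speak only for tested tiles. Every tile at the 6 genes that differed by 20 points also passed the test, so the required size set these counts.

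**Figure D2:**
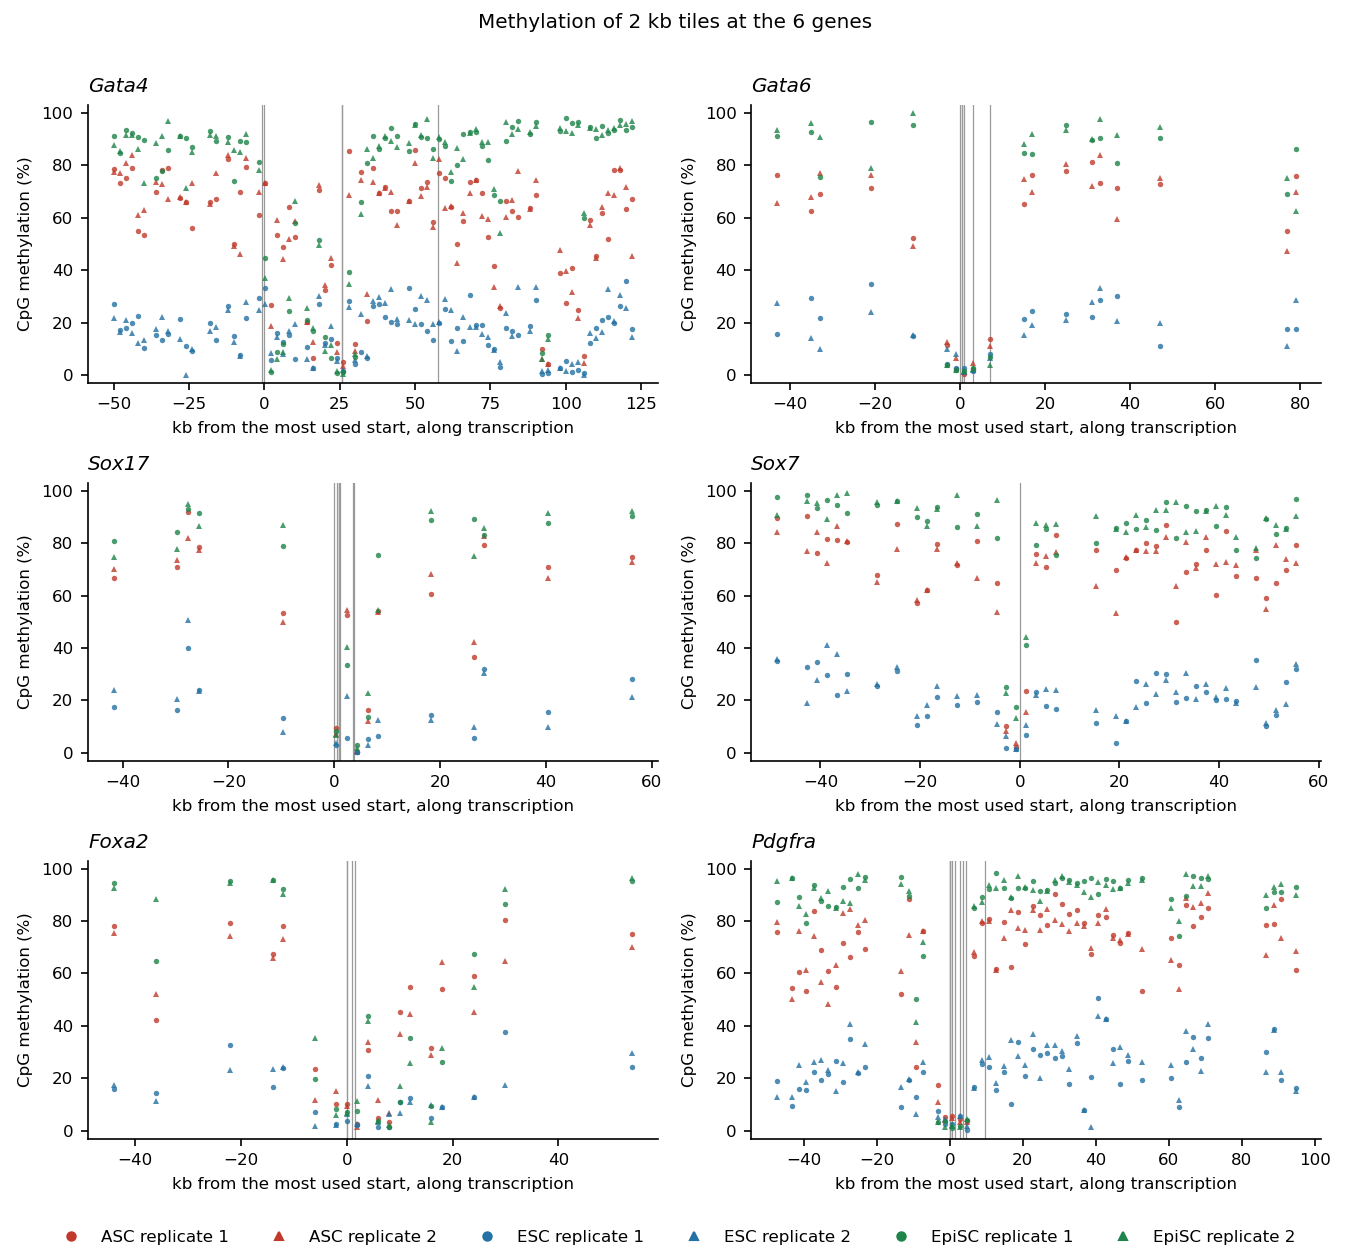
Level of CpG methylation (percent, y axis) of each tested 2 kb tile at the 6 genes against its distance in kb from the most used start along transcription (x axis), with 1 point per library (circles replicate 1, triangles replicate 2; red ASC, blue ESC, green EpiSC) and grey lines at annotated starts. Levels drop at most starts but not at the CpG-poor starts of Gata4 and Pdgfra, EpiSC is mostly highest elsewhere, and ASC lies above EpiSC over the first part of Gata4 and downstream of Foxa2.

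The 9 Gata4 tiles lay between chr14:63242001 and chr14:63272000 (GRCm38), a run of 30 kb from the upstream starts to just past the island start, most of it intron. This stretch was delimited after the values were seen, from the first to the last Gata4 tile called higher in ASCs than in EpiSCs. No such tile could thus lie outside it, and its summed level favours ASCs over EpiSCs by construction. It held 14 tested tiles, of which 9 were called higher and none lower in ASCs. Of the other 63 tested Gata4 tiles 38 were called lower. Summed over the stretch the level was 31.1% and 31.2% (ASC), 9.79% and 10.1% (ESC), 14.7% and 13.5% (EpiSC), from 2632 to 3210 observations, and the means were 31.1% ± 0.127, 9.92% ± 0.182 and 14.1% ± 0.799 (SD, n = 2). The ASC libraries were thus about equal and stood above both other cell types. Tile by tile EpiSCs differed from ESCs in both directions, from -7.73 points at chr14:63266001-63268000 (adjusted p = 0.0358) to 49.2 points at chr14:63260001-63262000 (adjusted p = 8.11e-14), so their sum averages unlike tiles.

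Within it, the tile with the largest excess was chr14:63266001-63268000, 4.12 kb downstream of the most used start in an intron. It read 53.6% and 59% (ASC), 16% and 14.6% (ESC), 8.93% and 6.25% (EpiSC). ASCs exceeded EpiSCs by 48.7 points (adjusted p = 5.95e-16) and ESCs by 40.97 points (adjusted p = 5.64e-11), and the EpiSC libraries were the lowest of the 6. The neighbouring tile chr14:63268001-63270000, with 85 CpGs, had the same order at lower levels: 26.8% and 18.6%, 5.80% and 8.29%, and 1.32% and 2.09%.

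In all 9 tiles, which were picked because they were called higher in ASCs, both ASC libraries were above both EpiSC libraries. The mean excess was 21.01 to 48.7 points, where a call required at least 20. The adjusted p, which a call required to be under 0.05, ran from 2.29e-21 to 0.000165, with 42 to 479 observations per library. The excess was not seen in every part of the stretch. At chr14:63254001-63256000, with 73 CpGs, ASCs read 6.39% and 12.7% and EpiSCs 16.7% and 18.0%, a difference of -7.85 points (adjusted p = 0.000882). In the printed intron sequence the ASC pair read 14% and 27.01%, the ESC pair 11.8% and 3.55% and the EpiSC libraries 5.94% and 4%.

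**Figure D3:**
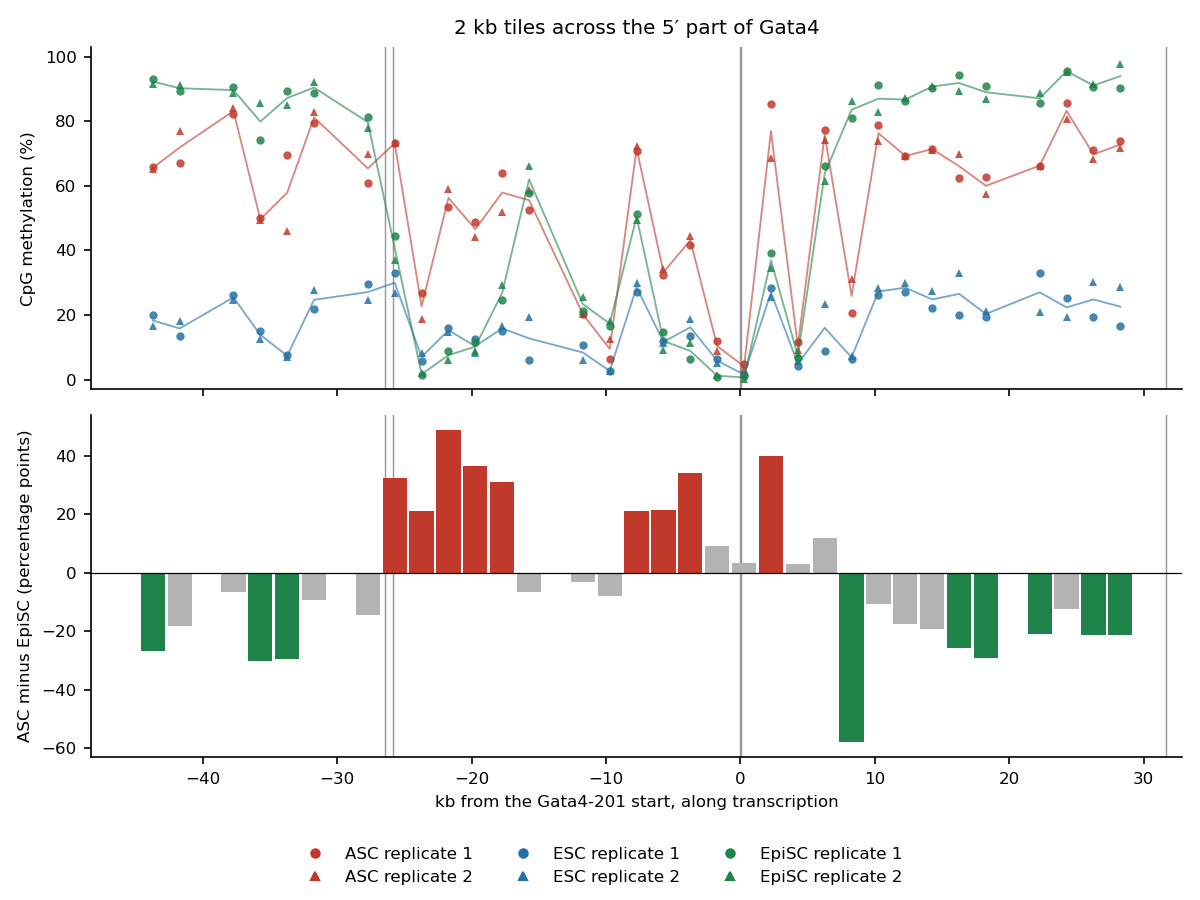
Upper panel, level of CpG methylation (percent) of 2 kb tiles against distance in kb from the Gata4-201 start along transcription, with 1 point per library (circles replicate 1, triangles replicate 2; red ASC, blue ESC, green EpiSC), lines through the group means that also bridge untested tiles, and grey verticals at annotated starts. Lower panel, ASC minus EpiSC in percentage points on the same axis, in red where ASC was called higher, green where called lower and grey otherwise; the 9 red bars all fall between the upstream starts and the first tile past Gata4-201.

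Past this stretch the order turned within 6 kb. The tile chr14:63238001-63240000 still read 77.4% and 74.3% (ASC) against 66.2% and 61.5% (EpiSC). In the next tile, the intron tile chr14:63236001-63238000, ASCs read 20.8% and 31.1%, ESCs 6.54% and 7.32% and EpiSCs 80.9% and 86.2%, so that ASCs were 57.6 points lower than EpiSCs (adjusted p = 6.01e-15). No other tested Gata4 body tile had EpiSCs as far above ASCs.

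The largest fall at any of the 6 genes lay downstream of Gata4, inside the neighbouring gene Fdft1, which encodes squalene synthase. The tile chr14:63166001-63168000, an Fdft1 intron 46.6 kb from the nearest Gata4 start, read 24.7% and 21.7% (ASC), 1.90% and 4.90% (ESC), 96.5% and 95.2% (EpiSC). The ASC libraries were 72.6 points below the EpiSC libraries (adjusted p = 8.84e-23) and 19.8 points above the ESC pair (adjusted p = 1.5e-06). In the printed Fdft1 intron sequence the ASC pair read 18.2% and 17.1%, the ESC pair 0% and 0% and the EpiSC pair 93.3% and 96.4%, from 28 to 45 observations each.

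This tile was 1 of 5 consecutive tiles, chr14:63164001-63174000, in which ASCs fell below EpiSCs by 50.2 to 72.6 points. Their group means were 6.0% to 43.3% in ASCs, 0.474% to 3.40% in ESCs and 60.9% to 95.8% in EpiSCs. These are among the CpGs of Fdft1 and not of Gata4, and whether they bear on Gata4 was not tested.

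The 3 Foxa2 tiles higher in ASCs lay downstream of the gene, between chr2:148028001 and chr2:148038000, in the lincRNA gene 9030622O22Rik. The stretch of 10 kb, again delimited by these calls after the values were seen, read 49.4% and 47.5% (ASC), 8.63% and 10.9% (ESC), 19.4% and 17.0% (EpiSC). It held 4 tested tiles, of which 3 were called higher and the fourth was 18.98 points higher (adjusted p = 0.00833). In the tile with the largest excess, chr2:148028001-148030000, ASCs read 53.9% and 64.3%, ESCs 8.96% and 8.99% and EpiSCs 26.2% and 31.5%, an excess of 30.2 points over EpiSCs (adjusted p = 2.03e-06). In the printed sequence from this tile the ASC pair read 41.03% and 50% and the EpiSC libraries 10.5% and 5.88%, with 15 to 39 observations per library.

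Smaller excesses of ASCs over EpiSCs were found close to the starts of other members. By adjusted p at any size, 23 of the 223 tiles were higher in ASCs (10.3%, against 0.374% of all tiles) and 164 lower (73.5%, against 90.4%). The higher tiles included chr18:11048001-11050000, 3.06 kb before the first Gata6 start, at 11.3% and 12.5% (ASC), 4.32% and 9.91% (ESC), 3.69% and 3.82% (EpiSC) (8.14 points, adjusted p = 3.94e-06). At Pdgfra the tile chr5:75148001-75150000, 3.29 kb before the first start, read 17.6% and 11.1% (ASC), 7.65% and 5.36% (ESC), 3.25% and 3.26% (EpiSC) (11.1 points, adjusted p = 6.16e-07). At Sox17 the tile chr1:4494001-4496000, between its starts, read 52.5% and 54.4% (ASC), 5.71% and 21.6% (ESC), 33.3% and 40.4% (EpiSC) (16.5 points, adjusted p = 0.0331).

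EpiSCs were below ESCs in some of these places. At any size, 7 of the 223 tiles were lower in EpiSCs than in ESCs (3.14%, against 0.0579% of all tiles), 4 at Gata4, 2 at Gata6 and 1 at Pdgfra, by 3.36 to 7.73 points, and none reached 20 points. Among them was the Gata4 tile of largest excess, where the adjusted p of the EpiSC fall was 0.0358 and did not hold without either ESC library or without EpiSC replicate 2.

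Falls of ASCs against EpiSCs were found at every gene. At Gata6 the largest was chr18:11040001-11042000, 11.1 kb before the first start, with 52.2% and 49.3% (ASC), 15% and 15.2% (ESC), 95.4% and 100% (EpiSC), or -46.98 points (adjusted p = 2.73e-11). At Pdgfra it was chr5:75108001-75110000, 43.3 kb upstream and overlapping the gene model Gm2040, with 54.6% and 50.4%, 9.59% and 12.7%, and 96.3% and 96.3%, or -43.8 points (adjusted p = 2.03e-16). At Sox17 it was the intergenic tile chr1:4470001-4472000, where ASCs read 36.7% and 42.2%, ESCs 5.63% and 10% and EpiSCs 89.3% and 75%, or -42.7 points (adjusted p = 3.27e-08). The corresponding falls at Sox7, 20.7 kb upstream, and at Foxa2, 36.03 kb upstream, were -33.9 and -29.5 points (adjusted p = 3.17e-10 and 0.00038).

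Around the Sox7 start itself the tiles again had EpiSCs above ASCs. The tile just past the start, chr14:63944001-63946000, read 23.8% and 15.7% (ASC), 6.70% and 10.7% (ESC), 41.2% and 44.4% (EpiSC), 23.1 points lower in ASCs than in EpiSCs (adjusted p = 9.86e-09). In that tile both ASC libraries were also above both ESC libraries, unlike in the promoter. The tile over the start was 12.3 points lower in ASCs than in EpiSCs (adjusted p = 8.33e-13). Sox7 was also the only gene whose run of tiles under 20% around the most used start was wider in ASCs (4 and 6 kb) than in EpiSCs (2 and 2 kb), and the widths have no test.

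The ASC and EpiSC runs were equally wide in every library at Gata6 (8 kb), Sox17 (2 kb), Foxa2 (6 kb) and Pdgfra (10 kb), but not under every other setting. With tiles shifted by 1 kb the mean run was 4 kb (ASC) against 8 kb (EpiSC) at Sox17, 6 against 7 kb at Foxa2 and 8 against 10 kb at Pdgfra. Under 10% it was 6 against 8 kb at Gata6, 2 against 5 kb at Foxa2 and 8 against 10 kb at Pdgfra, while Sox7 stayed wider in ASCs under both. The most used start of Gata4 was in no such run in any library. Around Gata4-201, a start added after the values were seen, the run was 4 kb in both ASC libraries and 8 kb in both EpiSC and both ESC libraries.

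Among single tested tiles, the gain of ASCs over ESCs was largest in a tile in the body of Pdgfra. The tile chr5:75188001-75190000, with 37 CpGs over Pdgfra exons, read 79.2% and 78.1% (ASC), 7.98% and 8.02% (ESC), 95.2% and 91.2% (EpiSC), a gain of 70.7 points (adjusted p = 2.16e-33). The largest gains at the other genes were 63.3 points upstream of Gata4, 62.3 downstream of Sox7, 59.97 upstream of Foxa2, 58.5 downstream of Gata6 and 55.98 downstream of Sox17.

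ESCs were not uniformly low at these loci. The most methylated ESC tile was chr5:75192001-75194000 in Pdgfra, at 50.5% and 43.8%, where ASCs read 82.5% and 79.1% and EpiSCs 90.1% and 94.8%. At Sox17 the highest was chr1:4524001-4526000, upstream of the gene and overlapping the gene model Gm7357, with 39.9% and 50.5% in ESCs beside 91.96% and 82.01% for ASC and 92.9% and 95.1% for EpiSC.

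To place ASCs between the other cell types, the ASC gain over ESCs was divided by the EpiSC gain over ESCs in tiles where the latter was 40 points or more. The median position was 0.740 over 178 tiles at the 6 genes and 0.691 over all such tiles. It was 0.801 at Sox17, 0.789 at Sox7, 0.764 at Pdgfra, 0.759 at Gata6, 0.728 at Foxa2 and 0.665 at Gata4, where single tiles ran from 0.0914 to 1.25. These are descriptions with no test, and the gene medians rest on 8 (Foxa2) to 61 (Gata4) tiles. The filter left out the 9 Gata4 and 3 Foxa2 tiles called higher in ASCs than in EpiSCs. EpiSCs exceeded ESCs there by at most 21.8 and 19.9 points.

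Tiles were also split by CpG number. Among tiles with 41 to 80 CpGs the 26 at the 6 genes had medians of 13.5% (ASC), 5.77% (ESC) and 10.5% (EpiSC), whereas all such tiles of the genome had 43%, 12.3% and 90.3%. In tiles of 11 to 20 CpGs the medians of the 85 tiles at the 6 genes, 70.5%, 18.7% and 88.7%, were close to those of all tiles, 70.4%, 19.9% and 92%. The 99 tiles of 21 to 40 CpGs had medians of 72.3%, 22.4% and 90.5%, beside 69.8%, 20.6% and 92.5% in the genome. In the 12 tiles with 81 or more CpGs the medians of 4.64% (ASC) and 2.29% (ESC) were above those of all such tiles (2.48% and 1.16%), and 2.54% (EpiSC) was below (7.15%). In this class and in that of 41 to 80 CpGs the ASC median at the 6 genes was above the EpiSC median, unlike over all such tiles. These medians have no test, and many of the 26 tiles lie near the starts described above.

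Summed over larger windows, levels differed by gene. The Gata4 body outside its promoters read 45.0% and 46.3% (ASC), 14.02% and 15.2% (ESC), 40.6% and 40.1% (EpiSC). It was the only body of the 6 that was higher in ASCs than in EpiSCs by the test, by 5.30 points (adjusted p = 8.31e-05). At any size this held for 0.446% of all gene bodies. The difference was 3.52 points as an unweighted mean over CpGs. The Gata4 body holds most of the stretch delimited above by calls of ASCs over EpiSCs. Of its 30 tested tiles away from the starts, 8 were called higher and 10 lower in ASCs, with a median of -11.9 points. No body was called between ASCs and EpiSCs, whereas 65.7% of all bodies were called lower in ASCs. The Gata6 body (60.3% and 57.8% in ASCs, 61.4% and 56.4% in EpiSCs) and the Sox17 body (3.91% and 5.54%, 5.16% and 5.34%) overlapped between these groups (adjusted p = 0.957 and 0.58). The bodies of Sox7, Foxa2 and Pdgfra were 10.2, 10.2 and 13.6 points lower in ASCs (adjusted p = 0.00136, 0.000122 and 3e-09), beside a median of -23.1 points over 19510 gene bodies.

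The Foxa2 downstream flank of 50 kb, which holds the stretch described above, was the only flank higher in ASCs. It read 46.0% and 46.6% (ASC), 11.1% and 11.3% (ESC), 36.3% and 37.3% (EpiSC), 9.47 points higher in ASCs than in EpiSCs (adjusted p = 6.69e-05; 0.238% of all downstream flanks at any size). The Gata4 downstream flank went the other way, with 45.3% and 42.9% (ASC) against 73.3% and 74.1% (EpiSC), or -29.6 points (adjusted p = 1.19e-10). It and the Gata6 downstream flank, at -21.02 points (adjusted p = 9.73e-08), were the 2 flanks called lower, where 61.1% of all downstream flanks were. No upstream flank was called lower, against 59.8% of all.

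The Gata6 upstream flank read 46.3% and 50.1% (ASC), 16.1% and 17.2% (ESC), 51.9% and 48.7% (EpiSC). The ASC and EpiSC libraries overlapped (-2.13 points, adjusted p = 0.258), while the upstream flanks of the other 5 genes were 9.97 to 17.4 points lower in ASCs with adjusted p of 0.000112 or less. In a 20 kb flank the falls upstream of Foxa2 and Pdgfra shrank to -1.37 and -2.85 points and did not pass the test (adjusted p = 0.527 and 0.158). Over 50 kb the Foxa2 fall was -10.7 points, and -16.1 points as an unweighted mean over CpGs with 3 or more reads.

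**Figure D4:**
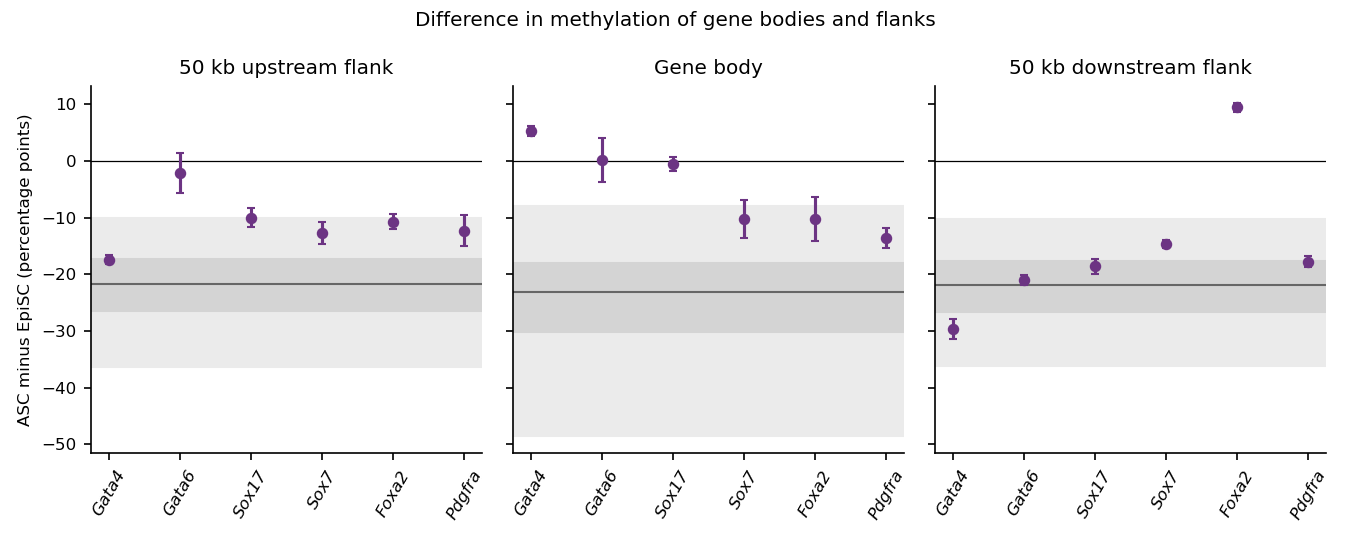
ASC minus EpiSC in percentage points (y axis) for the upstream flank, gene body and downstream flank of the 6 genes (x axis), as the difference of group means with bars for the root of the summed squared SDs of the 2 libraries per group. The dark line, dark band and light band are the median, the middle 50% and the middle 90% over all protein-coding genes; the Gata4 body and the Foxa2 downstream flank lie above 0, at 5.30 and 9.47.

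Against ESCs, ASCs and EpiSCs were called higher in all 12 flanks and in 4 of 6 bodies. The exceptions were the bodies of Sox17 and Foxa2. In the Foxa2 body ASCs (6.49% and 8.94%) were 2.39 points above ESCs (5.31% and 5.35%; adjusted p = 0.139), while EpiSCs (15.4% and 20.3%) were 12.5 points above them (adjusted p = 4.89e-06). Of all gene bodies 89.3% were called higher in ASCs and 96.8% higher in EpiSCs, and of all upstream and all downstream flanks 97.8% and 99.7% were.

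Levels were lowest within 1 kb of the starts for every gene and cell type. Within 1 kb of its starts Gata6 read 3.98% (ASC), 2.47% (ESC) and 2.47% (EpiSC), and between 20 and 50 kb it read 70.1%, 21.3% and 88.3%. Gata4 in the same classes went from 30.5%, 8.94% and 16.0% to 48.9%, 11.2% and 74.6%. From 1 to 5 kb ASCs were above EpiSCs in the means of Gata4 (34.3% and 22.5%), Gata6 (21.9% and 14.7%) and Sox17 (20.3% and 16.1%), and below them in those of Sox7 (44.8% and 56.1%), Foxa2 (16.8% and 19.3%) and Pdgfra (47.7% and 51.2%). These classes have no test, and for Sox17, Foxa2 and Pdgfra the gap was within the spread of the libraries.

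For Gata6, Sox7, Foxa2 and Pdgfra the 2 protein-coding genes most like each were found by the root mean square difference over 24 levels, namely the promoter at the most used start, the body and both flanks in 6 libraries, among 14043 other genes. For Gata6 they were Ggh and Fam76b (4.43 and 4.66 points) and for Sox7 Shisa3 and Gjd2 (3.73 and 3.81 points). For Foxa2 they were Tfap2a (7.35) and Foxa1 (7.79), and for Pdgfra Tshz1 and Zfp277 (2.95 and 3.08). The median distance to all genes ran from 15.8 points for Sox7 to 29.4 points for Foxa2.

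Other genes of the lineage were read at their most used start from lists of 83 genes: fibroblast growth factor signalling, endoderm transcription factors, basement membrane, visceral endoderm and parietal endoderm. Of these, 66 were tested. ASCs were called higher than ESCs at 13 (19.7%, against 18.8% of all protein-coding genes), EpiSCs higher than ESCs at 25 (37.9%, against 38.7%), ASCs lower than EpiSCs at 16 (24.2%, against 25.7%) and ASCs higher than EpiSCs at none (0.155% of all genes). The counts were near the background in each contrast. Lower in ASCs were 6 of 14 visceral endoderm, 5 of 16 parietal endoderm, 2 of 12 basement membrane, 2 of 13 transcription factor and 1 of 11 signalling promoters.

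The largest falls against EpiSCs were at 3 visceral endoderm genes (Amn, Cited1 and Soat2), a transcription factor and a parietal endoderm gene. Amn, which encodes amnionless, a partner of cubilin in uptake by the visceral endoderm, read 16.9% and 20.6% (ASC), 5.17% and 13.2% (ESC), 96.8% and 92.1% (EpiSC), 75.7 points lower in ASCs than in EpiSCs (adjusted p = 1.56e-07). Cited1, a transcriptional coactivator, read 10.1% and 22.05% (ASC) against 54.4% and 60.1% (EpiSC) (-41.2 points, adjusted p = 1.1e-05). Cited1 and Amot, also among the 6 visceral endoderm promoters lower in ASCs, are the 2 tested list genes on the X chromosome. The cells are described as female, and the part of X inactivation in these levels was not tested. Hnf4a, a nuclear receptor of the visceral endoderm and liver, read 50.9% and 59.5%, 18.4% and 24.4%, and 92.96% and 94.8% (-38.7 points, adjusted p = 7.96e-05). Soat2 (-35.97 points) and the keratin gene Krt19 (-33.7 points) followed (adjusted p = 0.000138 and 0.0035).

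Against ESCs the largest ASC gains on the lists were at Apoc2, an apolipoprotein (54.1 points), the growth factor receptor Fgfr2 (49.7), Stra6, a retinol transporter (49.2), the parathyroid hormone receptor Pth1r (47.7) and Apob (45.6). Their adjusted p ran from 1.7e-05 to 9.35e-05. The largest EpiSC gains were at Amn (85.3 points), Hnf4a (72.4), Aqp8 (72.2), Apob (71.5) and Srgn (68.5). Fgfr2 read 61.2% and 56.1% (ASC), 6.93% and 11% (ESC), 80.7% and 71.3% (EpiSC).

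**Figure D5:**
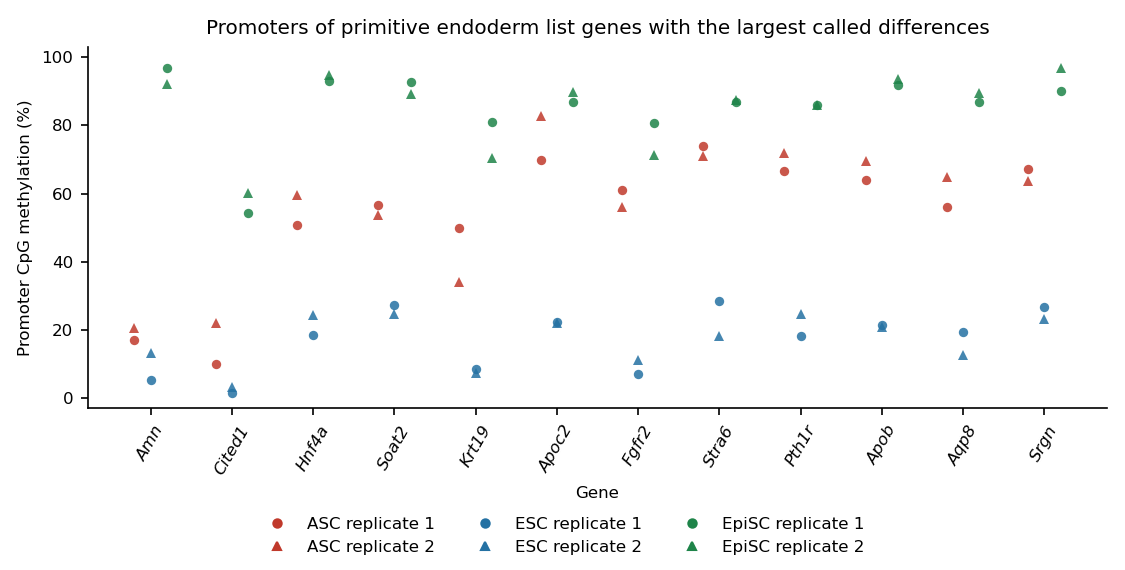
Level of CpG methylation (percent, y axis) in the promoters of the list genes with the largest called differences (x axis), with 1 point per library (circles replicate 1, triangles replicate 2; red ASC, blue ESC, green EpiSC). EpiSC libraries are the highest at every gene shown, and Amn and Cited1 are the genes where both ASC libraries stay under 23%.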

How the data were processed

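CpG methylation was measured by single-end post-bisulfite adaptor tagging (PBAT) in 2 libraries each of ASC, ESC and EpiSC. The authors trimmed reads with Trim Galore, aligned them with Bismark 0.16.3 to GRCm38, removed duplicates and summed both strands of each CpG with MethPipe (version not given in the sources used here). For every CpG the deposited files hold the fraction of methylated reads and the read count. The reference is C57BL/6J, while the labels name a 129 strain and the study's methods a cross with a mixed background, so CpGs that differ between strains may be misread.

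Methylated reads were recovered as fraction times count and summed over promoters (1000 bp before to 100 bp after each GENCODE M21 start), bodies, 50 kb flanks and 2 kb tiles, with 40 or more observations in every library. Groups were compared by a quasi-binomial logistic model with dispersions moderated by limma 3.58.1 in R 4.3.3, and p-values were adjusted by Benjamini-Hochberg over all regions of a kind. Calls needed an adjusted p under 0.05 and 20 points. Replicate numbers were not used to pair the libraries in the main model.

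The genes and lists were chosen with earlier results of these data known. Named were all starts of the 6 genes, per gene the tiles with the largest called fall and rise against EpiSC, the highest ESC level and the largest called gain over ESC, per list contrast the 5 largest called promoters, and per gene the 2 genes most alike, which for Gata4 and Sox17 are not reported here. Other tiles and the delimited stretches were picked after their values were seen. Alternatives were other minimums, sizes, windows, tests, tiles shifted by 1 kb, an unweighted mean over CpGs with 3 or more reads, a replicate block and leaving out each library.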

Additional observations from a re-analysis of the deposited data

How the results depend on the processing

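With 100 observations required, no promoter of the 6 genes was called higher than in ESC in ASC (0) or EpiSC (0), against 3 and 3. With a promoter of 500 bp on either side, 1 was called higher in EpiSC than in ESC and 1 higher in ASC than in EpiSC, and at 10 points 1 was lower in ASC than in EpiSC. Leaving out 1 library gave 0 to 1 promoters higher in ASC than in EpiSC, the 1 without EpiSC replicate 1. For tiles, 20 observations gave 294 higher in ASC than in ESC, 292 higher in EpiSC than in ESC and 127 lower in ASC than in EpiSC, and 100 observations gave 41, 42 and 15, with 4 higher in ASC than in EpiSC. At 10 points 151 tiles were lower in ASC than in EpiSC, and at 40 points 10 were lower and 2 higher. Of the bodies and flanks, 9 were higher in ASC than in ESC at 40 points, and 12 at 10 points and 0 at 40 points were lower in ASC than in EpiSC. For the lists, ASC was higher than ESC at 25 with 20 observations, 1 with 100 and 7 at 40 points, EpiSC was higher than ESC at 11 and 15 under the latter settings, and ASC was lower than EpiSC at 7 and 2 under them and at 28 at 10 points. The median position was 0.729 with 100 observations and 0.725 to 0.747 with 1 library left out, the lowest without ASC replicate 1. Required depth changes how many regions are tested, and required size changes what counts, by construction.

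With a replicate block the counts were 188, 184, 72 and 12 for tiles, 3, 3, 0 and 0 for promoters, 16, 16, 2 and 0 for bodies and flanks and 13, 25, 16 and 0 for the lists, as without it. The correlations of replicate differences between groups were 0.00232, -0.00617 and -0.00065, so no shared effect of the replicate number was seen across tiles. They cannot tell whether libraries of the same number were prepared together. The alternatives for single regions cover 133 regions and contrasts, all of which had passed the main test. Other minimums, other tests, the replicate block and leaving out a library of the third group keep a difference as it is. Only the adjusted p could change under those. Of 1532 values of single regions under alternatives, 1454 held and 66 kept their direction but no longer passed the test. Another 1 changed direction and 11 moved by more than the spread between libraries. All 11 came from the unweighted mean over CpGs with 3 or more reads, which has no test and whose other 63 values, counted among the 1454, moved by less than that spread. The 1 that changed direction was EpiSC minus ESC at Gata4-205/206, at -9.05 points with a promoter of 500 bp on either side. In that window 11 start differences no longer passed and 7 held, and Gata4-204 and 3 Pdgfra starts had too few observations. The cause was not tested. Shifted tiles are other regions and gave counts only. With 2 libraries per group and about 3 reads per CpG, single CpGs and small differences in CpG-poor regions are beyond this depth.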
